A study of Mus musculus with 4 samples.

Results

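The interferon regulatory factors are transcription factors that share a DNA-binding domain and read interferon-stimulated response elements. Of the 55416 genes in the deposited files, 8 were taken by symbol as members of the family, namely Irf1, Irf2, Irf3, Irf4, Irf5, Irf7, Irf8 and Irf9. The RNA came from the mouse myoblast line C2C12, transfected with 3 µg of DNA for wild-type lamin A (2 libraries, called wild type here) or for K97E lamin A, which the study's design text calls a DCM mutant (2 libraries, called K97E), and harvested 24 h later. The titles of the K97E libraries spell the line C1C12, while their other labels give C2C12. Both groups carried transfected lamin A DNA, and no untransfected or lipid-only cells were analysed here. The titles call the replicates biological. Whether they came from separate cultures, how many cells took up the DNA and from which species it came are not given in the sources used here, so a p-value here reflects only how far these libraries spread, which may be technical.

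In the family, Irf3 and Irf7 are switched on by kinases downstream of sensors of foreign nucleic acid and then induce interferon genes. Irf9 joins Stat2 in the complex that carries the signal of type I interferon receptors to the nucleus, and Irf7 is itself induced by that complex. Irf1 is an activator induced by interferon gamma and inflammatory signals, and Irf2 competes with it for the same DNA element. Irf5 acts downstream of Toll-like receptors, while Irf4 and Irf8 are known mainly from lymphocytes and myeloid cells.

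Coverage in the files corresponded to between 89600000 and 115600000 reads of 100 bases per library, and 16304 genes with a mean of at least 0.5 TPM (a level corrected for transcript length and library size) were tested. Of the 8 members, 6 passed this filter. Irf4 and Irf8 were listed at 0 TPM in all 4 libraries, for each of their annotated transcripts. Of the myoblast markers, Des stood at 384 to 467 TPM, Myf5 at 41.5 to 47.8 TPM and Myod1 at 4.56 to 4.96 TPM. Myog, a marker of differentiating cells, was listed at 0 in 3 libraries. Msc reached at most 0.0607 TPM, and Pax7 was not matched. The 9 matched myoblast markers summed to 732 and 872 TPM with wild type and 730.2 and 746 TPM with K97E. Among 12 matched leukocyte markers, Adgre1, Cd3e and Spi1 were listed at 0 throughout and Ptprc reached at most 0.0496 TPM, whereas Cd74 stood at 14.1 to 34.1 TPM, Cd68 at 3.17 to 5.48 TPM and Lyz2 at 0.819 to 1.55 TPM.

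The start regions of Irf1 and Irf2 are shown first, because the files credited Irf1 reads to transcripts from different starts and because Irf2 had the lowest log2 difference. The sequences are from RefSeq on GRCm38.p6, 5′ to 3′ on the gene's strand, and hold only bases outside annotated exons. Capitals mark the letters TTCNNNGAA, the pattern of gamma-activated sites. The stretches are chr11:53769764-53770013 before the upstream Irf1 start, chr11:53770279-53770472 before the downstream Irf1 start, and chr8:46739516-46739731 at Irf2, all on the plus strand.
Irf1 upstream start: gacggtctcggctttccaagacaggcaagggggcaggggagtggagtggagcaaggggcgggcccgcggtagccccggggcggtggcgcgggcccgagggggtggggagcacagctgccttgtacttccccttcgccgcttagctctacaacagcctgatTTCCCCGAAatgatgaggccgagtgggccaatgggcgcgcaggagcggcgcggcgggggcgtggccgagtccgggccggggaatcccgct
Irf1 downstream start: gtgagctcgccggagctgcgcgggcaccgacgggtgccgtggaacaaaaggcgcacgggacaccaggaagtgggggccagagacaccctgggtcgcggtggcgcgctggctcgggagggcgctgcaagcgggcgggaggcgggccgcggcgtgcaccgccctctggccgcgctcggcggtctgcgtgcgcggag
Irf2: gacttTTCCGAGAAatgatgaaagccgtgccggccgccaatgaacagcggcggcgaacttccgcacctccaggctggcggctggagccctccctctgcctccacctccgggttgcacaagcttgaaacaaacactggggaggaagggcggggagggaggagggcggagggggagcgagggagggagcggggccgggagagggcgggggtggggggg
Within the 250 bases before each RefSeq start of a member, TTCNNNGAA occurred at Irf1 (-90 to -82 from the upstream start) and at Irf2 (-224 to -216). It also occurred at 2 places at Irf8 (-171 to -163 and -153 to -145). Of all 32851 RefSeq start windows of that length, 7.02% held it. The response element pattern is GAAA repeated after any 2 bases and was searched on both strands. Among the members' RefSeq windows it was present only at Irf2 (-241 to -232, just outside the printed stretch), against 2.98% of all windows. Its shorter core AANNGAAA occurred in 2 overlapping copies at Irf2 (-245 to -238 and -239 to -232), of which the nearer lies inside the longer match, and in 21.3% of all windows. Annotated starts without a RefSeq window of their own, among them starts of Irf2, Irf3, Irf5, Irf7 and Irf9, were not searched. At Irf7 these include the start of the transcript ENSMUST00000209899, described below. The matches describe letters and not bound sites.

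Irf7, the amplifier of interferon production, was the most abundant member by TPM and ranked 199 among the genes tested. It stood at 633 and 694 TPM with wild type and at 758 and 709.5 TPM with K97E, so both K97E libraries lay above both wild-type libraries. After scaling between libraries the gap was narrow, 708 TPM in wild-type replicate 2 against 711 TPM in K97E replicate 2. The means were 664 ± 42.8 and 734 ± 34.5 TPM (SD, n = 2 each). On the scale of log2(scaled TPM + 0.5) the difference, K97E minus wild type, was 0.09 (SE 0.11, 95% interval -0.19 to 0.36, limma adjusted p = 0.965), and it was 0.02 without wild-type replicate 1.

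Irf9, the DNA-binding part of the interferon-stimulated complex, came after Irf7 and Irf1 in every library. It stood at 91.4 and 85.2 TPM with wild type and at 95.3 and 89.3 TPM with K97E. The groups overlapped, and the log2 difference was 0.01 (SE 0.09, 95% interval -0.21 to 0.22, limma adjusted p = 0.997). Its direction turned when wild-type replicate 2 (-0.05) or K97E replicate 1 (-0.0099) was left out. Its partner Stat2 was lower by value, with 381 and 348 TPM with wild type against 351 and 336 TPM with K97E. Per TPM of Stat2 there were 0.240 and 0.245 TPM of Irf9 with wild type and 0.272 and 0.266 with K97E. The K97E ratios lay above the wild-type ratios. This ratio, like that of Irf1 to Irf2 given later, was chosen after its values were seen and carries no test.

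Irf1, the interferon gamma-responsive activator, ranked second in the family. It stood at 249.5 and 235 TPM with wild type and at 229.8 and 244 TPM with K97E, with overlapping groups. The log2 difference was -0.09 (SE 0.10, 95% interval -0.34 to 0.16, limma adjusted p = 0.965), and -0.01 without K97E replicate 1, the lowest library. Irf2, its antagonist, stood at 54.7 and 40.3 TPM with wild type and at 40.1 and 38.2 TPM with K97E. Wild-type replicate 1 was high, and the other 3 libraries lay between 38.2 and 40.3 TPM. Irf2 had the lowest log2 difference of the family, -0.32 (SE 0.16, 95% interval -0.71 to 0.07, limma adjusted p = 0.965). Leaving out wild-type replicate 1 gave -0.10, and leaving out wild-type replicate 2 gave -0.54. There were 4.56 and 5.84 TPM of Irf1 per TPM of Irf2 with wild type and 5.73 and 6.39 with K97E, which overlapped.

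Irf3, the constitutively made partner of Irf7 in the first wave of interferon induction, was the lowest member with a measured level. It stood at 27.6 and 29.0 TPM with wild type and at 30.4 and 27.8 TPM with K97E, and its log2 difference was -0.02 (SE 0.09, 95% interval -0.25 to 0.21, limma adjusted p = 0.990). The sign of that difference changed with TPM as deposited (0.04), with FPKM (0.0079), with voom weights (0.07) and without wild-type replicate 2 (0.01) or K97E replicate 2 (0.0095). Irf5, which acts below Toll-like receptors, varied most among the libraries. It stood at 52.0 and 43.8 TPM with wild type and at 34.2 and 49.7 TPM with K97E. Its low library was K97E replicate 1, and the log2 difference of -0.27 (SE 0.21, 95% interval -0.79 to 0.26, limma adjusted p = 0.965) became 0.03 when it was left out, -0.57 when the other K97E library was, and -0.15 when wild-type replicate 1 was.

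**Figure D1:**
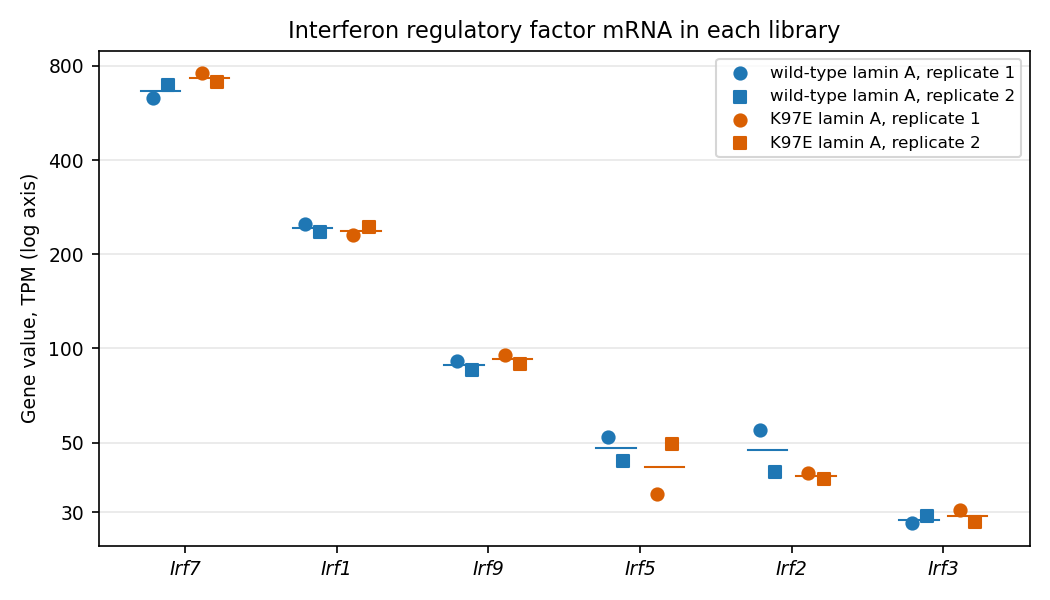
Gene TPM (log axis) of the 6 members with a measured level, in each library; points are libraries and short lines are group means of 2. Irf7 lies between 633 and 758 TPM, Irf1 between 229.8 and 249.5, Irf5 between 34.2 and 52.0 and Irf2 between 38.2 and 54.7; Irf4 and Irf8, listed at 0, are not drawn.

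The order of levels was Irf7, Irf1, Irf9, then Irf2 and Irf5, then Irf3 in all 4 libraries. Irf2 and Irf5 changed places, with Irf2 higher in replicate 1 and Irf5 higher in replicate 2 of both groups, and their ranges overlapped. The other neighbours in the order did not overlap over the 4 libraries. Estimated reads ran from 1769 for Irf3 in wild-type replicate 1 to 74712 for Irf7 in K97E replicate 1.

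No member was called by limma at an adjusted p under 0.05, higher or lower, where 0.00613% of all genes tested (1 gene) were called higher and 0.0% lower. By sign, 2 of 6 members were higher (beside 49.5% of genes tested) and 4 of 6 lower (beside 50.5%). No member of the 6 had an unadjusted p under 0.05, beside 1.14% of genes higher and 2.54% lower, and with voom weights 0 of 6 were called. Groups did not overlap for Irf7 on the higher side (1 of 6, beside 16.3% of genes tested) and for Irf2 on the lower side (1 of 6, beside 16.8%). The members' median log2 difference was -0.05, beside -0.0017 over all genes tested. Leaving out K97E replicate 1 gave -0.01, leaving out wild-type replicate 2 gave -0.09, and TPM as deposited gave 0.0027. The intervals of Irf2 and Irf5 reached below -0.7, so differences of that size could not be told from none in 2 libraries a group. In bulk RNA fewer cells of a type and less RNA per cell cannot be told apart.

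**Figure D2:**
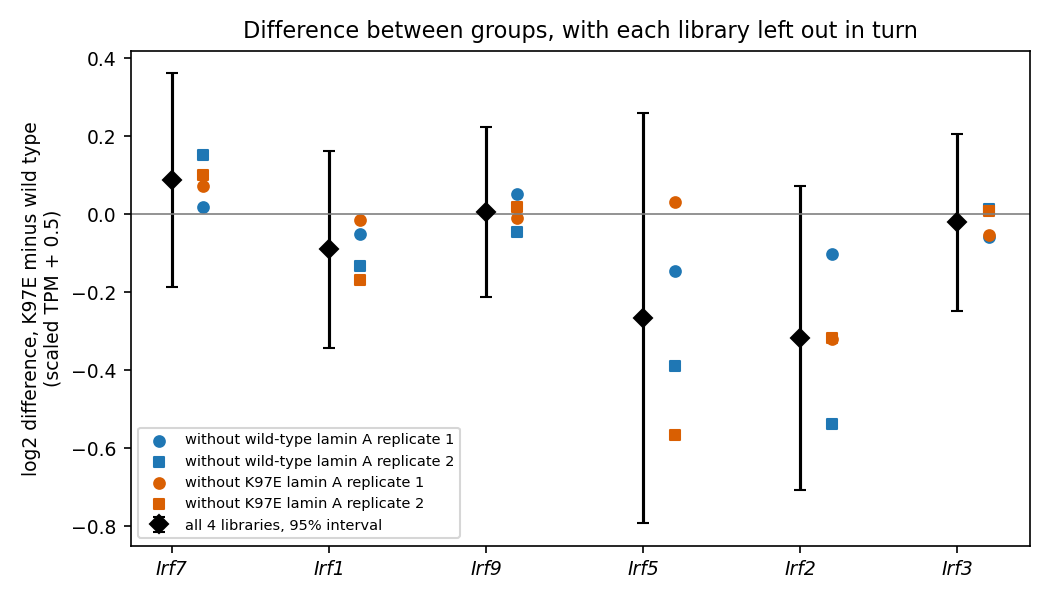
The log2 difference, K97E minus wild type, for the 6 measured members; diamonds with bars are the values from all 4 libraries with 95% intervals, and coloured points leave out 1 library. All 6 intervals include 0, and Irf5 moves from -0.57 to 0.03 with the K97E library that is left out.

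The annotated transcripts that carried each gene's TPM varied more than the gene totals. Irf7 was credited mainly to ENSMUST00000106023 in wild-type replicate 1, at 362 TPM, against 115 TPM in wild-type replicate 2, with 164 and 123 TPM under K97E. The Irf7 transcript ENSMUST00000209899, annotated in GENCODE M21 as a target of nonsense-mediated decay, stood at 79.9 and 268 TPM with wild type and at 232 and 262 TPM with K97E. The protein-coding share of Irf7 was therefore 80.7% and 53.7% with wild type and 62.7% and 55.5% with K97E. Wild-type replicate 1 stood apart from the other 3 libraries, and the groups overlapped. For Irf9 that share held between 82.0% and 84.9%. For Irf3 it was 49.4% and 71.7% with wild type and 75.4% and 65.9% with K97E, with the rest in transcripts that retain an intron.

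For Irf1 and Irf5 the first exons can be set beside the transcript estimates, using the coverage that the files give on each transcript's exon lines. The upstream Irf1 transcript ENSMUST00000108920 (first exon on GRCm39 chromosome 11, 53660841 to 53661104) was credited with 239 and 224 TPM with wild type against 219 and 165 TPM with K97E. The downstream transcript ENSMUST00000019043 (first exon 53661321 to 53661517) was credited with 4.77 and 5.14 TPM, and with 0 and 69.8 TPM. The first-exon coverage credited to the upstream transcript was 920.3, 855, 838 and 868 reads per base in that order of libraries. That credited to the downstream transcript was 3.46, 3.87, 0 and 12.6 reads per base, and summed over all Irf1 transcripts that span its first exon it was 3.68, 4.003, 1.65 and 13.2. In K97E replicate 2 the other exons of the downstream transcript, all shared with the upstream one, were credited with 294 to 537 reads per base. Exon coverage is itself divided among transcripts, so it is not independent of the transcript estimates. The Irf1 start windows printed above were matched to these transcripts by the sequence at the start, with the upstream one holding the gamma-activated pattern. For Irf5, the first-exon coverage credited to ENSMUST00000163511 (chromosome 6, 29529281 to 29529482) exceeded that credited to ENSMUST00000004392 (29526624 to 29526773) in every library, by 7.35-fold and 4.58-fold with wild type and 6.38-fold and 4.51-fold with K97E. The TPM credited to the 2 Irf5 transcripts had the opposite order in both replicate 2 libraries, at 18.3 against 25.1 TPM with wild type and 18.5 against 30.8 TPM with K97E.

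Irf2 was divided between ENSMUST00000034041, which is protein-coding, and ENSMUST00000210284, annotated for nonsense-mediated decay, which lacks an exon of 118 bases (GRCm39 chromosome 8, 47271826 to 47271943). The decay transcript took 29.4% and 18.3% of Irf2 TPM with wild type and 16.5% and 41.3% with K97E, which overlapped. Coverage of that exon, summed over transcripts, was 90.7% and 94.5% of the mean of its neighbouring exons with wild type and 84.2% and 82.7% with K97E. On this measure the K97E libraries lay below the wild-type libraries. The exon was picked after its values were seen, and no test was made.

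**Figure D3:**
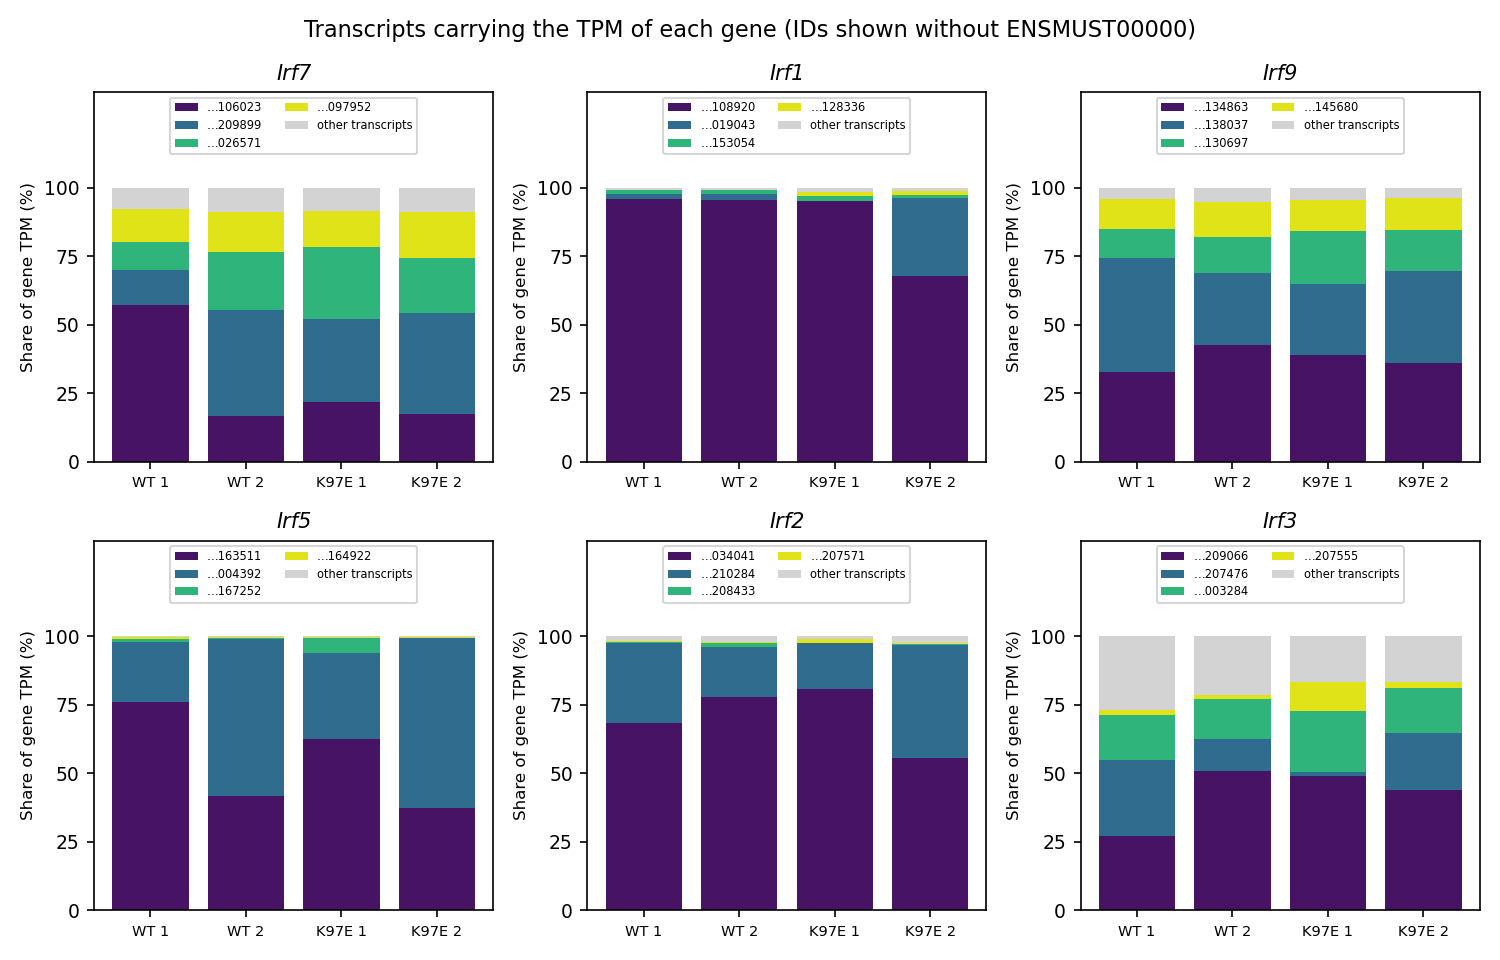
Share of each gene's TPM (%) credited to its 4 leading transcripts and to the rest, one bar per library. Irf7 in wild-type replicate 1 and Irf1 in K97E replicate 2 differ in credited shares from the other libraries of the same gene.

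Exons of 5 members overlap exons of another gene. The library kit keeps strand, but no strand option stands in the recorded StringTie command, so reads of an opposite strand can be credited to either gene. Irf1 shares 795 exonic bases with the antisense Gm17334 (5.07 to 6.13 TPM), Irf5 shares 411 with the antisense Tnpo3 (81.5 to 89.2 TPM), Irf3 shares 88 with Bcl2l12 and Irf7 shares 45 with Phrf1. Irf9 shares 123 bases with Rnf31 (52.6 to 67.0 TPM) on its own strand. On GRCm39 the members lie at chromosome 11, 53660841 to 53669200, plus strand (Irf1, ENSMUSG00000018899), chromosome 8, 47192767 to 47300493, plus (Irf2, ENSMUSG00000031627) and chromosome 7, 44647072 to 44652272, plus (Irf3, ENSMUSG00000003184). Irf5 (ENSMUSG00000029771) lies at chromosome 6, 29526624 to 29541870, plus, Irf7 (ENSMUSG00000025498) at chromosome 7, 140842619 to 140846394, minus, and Irf9 (ENSMUSG00000002325) at chromosome 14, 55841028 to 55847487, plus. Irf4 (ENSMUSG00000021356) lies on chromosome 13, 30933209 to 30950959, and Irf8 (ENSMUSG00000041515) on chromosome 8, 121463097 to 121483433, both on the plus strand.

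Irf4 and Irf8 bind DNA with the factor Spi1 or with Batf family proteins, and these partners were low too. Spi1 was listed at 0 in all libraries, and Batf and Batf3 reached at most 0.0696 and 0.110 TPM. Batf2 was the exception, at 54.5 and 42.7 TPM with wild type and 33.6 and 42.5 TPM with K97E, a log2 difference of -0.41 (SE 0.18) that came to -0.24 when wild-type replicate 1 was left out and -0.21 when K97E replicate 1 was. The leukocyte markers summed to 39.0 and 31.1 TPM with wild type and 20.3 and 26.6 TPM with K97E, and 14.1 to 34.1 TPM of that was Cd74, the invariant chain of MHC class II. Whether other cells took part in any difference was not tested. Of the 11 partners and modifiers tested 0 were called. By scaled log2 difference 5 differed upward and 6 downward (beside 50.5% of genes tested), with a median of -0.0080. That median was 0.02 without wild-type replicate 1, and above 0 also with voom weights (0.02), FPKM (0.02) and TPM as deposited (0.05). Nfkb1, an NF-kB subunit, stood at -0.26 on the log2 difference scale, and Slc15a4, a transporter needed for Irf5 activation, at 0.28. Slc15a4 came to 0.11 when wild-type replicate 1 was left out and to 0.44 when wild-type replicate 2 was.

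Upstream of Irf3, Irf5 and Irf7, 20 of 22 sensors, adaptors and kinases were tested and 0 were called. By scaled log2 difference 14 were lower (beside 50.5% of genes tested) and 6 higher, with a median of -0.09 (-0.04 with TPM as deposited). An unadjusted p under 0.05 was reached by 3, all lower (beside 2.54% of genes tested). Tlr3, the endosomal sensor of double-stranded RNA, stood at 67.5 and 57.6 TPM with wild type and 48.4 and 50.6 TPM with K97E, a log2 difference of -0.39 (SE 0.11). Tlr2, a sensor of bacterial lipoproteins, differed by -0.49 (SE 0.17), Tank, an adaptor of the kinase Tbk1, by -0.32 (SE 0.12), and Tbk1, which phosphorylates Irf3, by -0.22 (SE 0.10). Each had a limma adjusted p of 0.965, and Tlr2 came to -0.27 when K97E replicate 1 was left out.

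Of the matched interferon genes only Ifnb1 and Ifna4 passed the filter. Interferon-responsive genes reached far higher levels in both groups. Isg15 stood at 1689 and 1620 TPM with wild type and at 1642 and 1765 TPM with K97E. Without untransfected cells, induction of these genes was not tested. Ifnb1, the interferon that Irf3 and Irf7 induce first, stood at 19.0 and 8.89 TPM with wild type and at 4.69 and 12.6 TPM with K97E, with overlapping groups. On the log2 scale it differed by -0.77 (SE 0.53), with an adjusted p of 0.965 from limma. It was highest in wild-type replicate 1 and lowest in K97E replicate 1. Leaving out the former gave -0.24, leaving out the latter -0.07, and leaving out K97E replicate 2 gave -1.46. Ifna4, whose reads may be split with its near-identical neighbours, differed by -0.80 (SE 0.38), the receptor chain Ifnar2 by -0.26 (SE 0.15) and Il10rb, a shared receptor chain, by -0.15 (SE 0.10). Single libraries moved each of these: Ifna4 to -0.43 or -0.37 when replicate 1 of wild type or of K97E was left out, and to -1.24 when K97E replicate 2 was. Ifnar2 came to -0.05 when wild-type replicate 1 was left out and to -0.47 when wild-type replicate 2 was, and Il10rb to -0.24 and -0.0648 in the same order. All 7 ligands and receptors tested were lower by value (beside 50.5% of genes tested), and 0 were called. Their median of -0.15 became -0.06 when wild-type replicate 1 was left out and -0.24 when wild-type replicate 2 was.

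The kinases and STATs of interferon receptors were taken with their inhibitors Socs1 and Usp18. After scaling between libraries, all log2 differences were negative (8 of 8, beside 50.5% of genes tested). In TPM as deposited, mean Jak1 was 148 with wild type and 151 with K97E, and mean Socs1 was 15.2 and 15.7. The other means of the list were lower with K97E. The list's median log2 difference was -0.14, or -0.08 with TPM as deposited, and 0 genes were called. Usp18 stood at 477 and 479 TPM with wild type and 396 and 433 TPM with K97E, a log2 difference of -0.27 (SE 0.11). Jak2 differed by -0.19 (SE 0.13) and Stat2 by -0.14 (SE 0.10). Groups did not overlap on the lower side for 4 of the 8, beside 16.8% of genes tested. Jak2 came to -0.08 when wild-type replicate 1 was left out, -0.305 when wild-type replicate 2 was, -0.07 when K97E replicate 1 was and -0.31 when K97E replicate 2 was. Stat2 came to -0.08 when wild-type replicate 1 was left out, and Usp18 to -0.17 when K97E replicate 1 was.

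Downstream, 26 of 29 interferon-responsive genes had negative log2 differences after scaling (beside 50.5% of genes tested). Of these 26, Isg15 (1655 with wild type and 1703 with K97E) and Oas3 (149.7 and 154.6) had higher mean deposited TPM with K97E. The median log2 difference of the 29 was -0.17, with 0 called and 1 lower at an unadjusted p under 0.05 (beside 2.54% of genes tested). Leaving out wild-type replicate 1 moved it to -0.09, and leaving out wild-type replicate 2 to -0.26. Epsti1, the lowest of the list at 2.68 and 1.56 TPM with wild type and 1.07 and 1.27 TPM with K97E, differed by -0.66 (SE 0.26). Mx2, an antiviral GTPase, differed by -0.25 (SE 0.12), Herc6, the ISG15 ligase, by -0.22 (SE 0.11) and Oasl1, which represses translation of Irf7 mRNA, by -0.18 (SE 0.09). With wild-type replicate 1 left out, Epsti1, Mx2 and Herc6 came to -0.35, -0.15 and -0.12, and Mx2 came to -0.15 also when K97E replicate 1 was. Of the genes bound or induced by Irf1, 20 of 22 had negative scaled log2 differences (beside 50.5%), with a median of -0.28 and 0 called. Psmb10, counted among the 20, had a higher mean deposited TPM with K97E (296 with wild type and 308 with K97E). An unadjusted p under 0.05 was reached by 7 of the 22, all lower, beside 2.54% of genes tested that were lower at that threshold. Nos2, which makes nitric oxide, had 21.4 and 38.0 TPM with wild type against 4.12 and 5.26 TPM with K97E, and differed by -2.55 on the log2 scale (SE 0.29) with an adjusted p of 0.336 from limma. Gbp5 differed by -0.70 (SE 0.14), the adhesion molecule Vcam1 by -0.44 (SE 0.11) and Nlrc5, the transactivator of MHC class I genes, by -0.29 (SE 0.08). Irf1 itself differed by -0.09 in the same libraries. These lists were drawn up with results of these libraries known, so their directions are not independent evidence, and whether a list differs from the members was not tested.

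**Figure D4:**
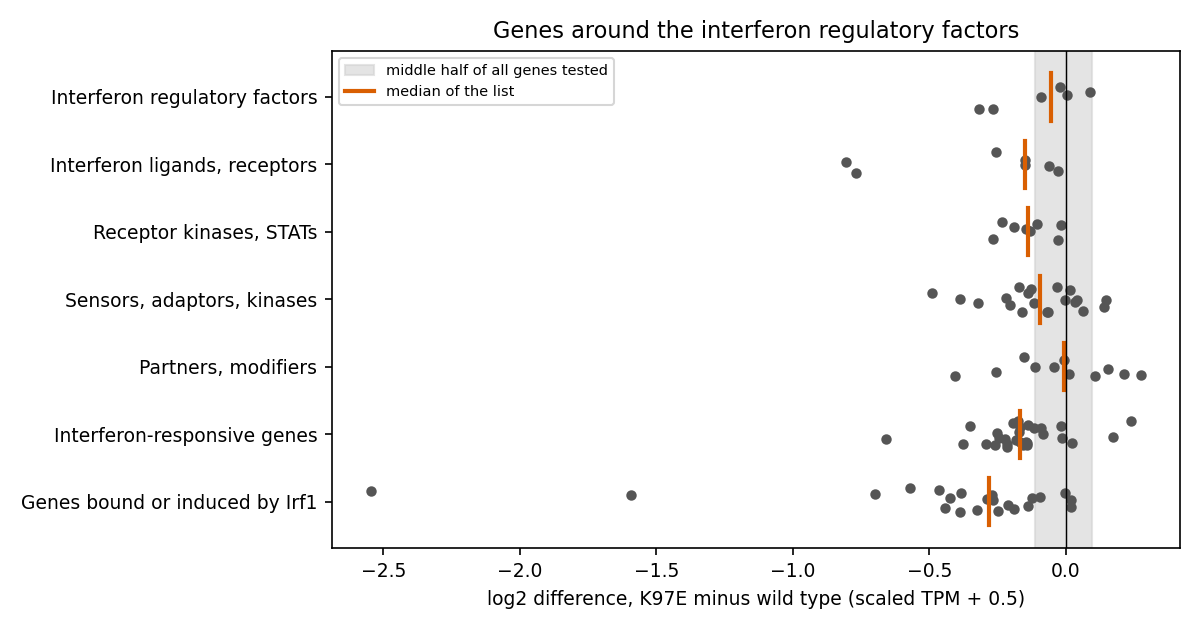
The log2 difference, K97E minus wild type, of each tested gene in 7 groups; points are genes, orange lines are medians and the grey band is the interquartile range of all genes tested (-0.11 to 0.10). The members' median is -0.05, and the medians of the interferon-responsive genes and of the genes bound or induced by Irf1 are -0.17 and -0.28.

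The genes most like single members over the 4 libraries were taken as those with the smallest root mean square difference of centred log2 values among 11270 genes at a mean of at least 5 TPM. For Irf7 these included Commd9 (0.00386) and Fbxo6 (0.00411). For Irf9 they were Timm44 (0.00271), Synj2 (0.00321) and Fbrs (0.00343). Irf1 was nearest to Ifi35 (0.0075), and Chst15 (0.0104) was also among its nearest. With 4 libraries this describes a shared order of small differences only. Among marker lists, the median log2 difference was -0.14 for myoblast markers (7 tested), -0.31 for leukocyte markers (3 tested), -0.22 for endothelial markers (2 tested) and 0.19 for fibroblast markers (3 tested), and limma called 0 in each. At an unadjusted p under 0.05 were 2 myoblast markers, Chrna1 (-0.37, SE 0.09) and Vcam1, and 1 leukocyte marker, Cd74 (-0.72, SE 0.28), all lower. Of all genes tested, 2.54% were lower at that threshold.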

How the data were processed

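Per the file headers, the authors ran StringTie 2.1.7 with the Ensembl annotation of GRCm39 on each library, which gave the deposited coverage, FPKM and TPM of each transcript. HISAT2, SAMtools, FastQC and DESeq2 are also named in the submitters' processing notes, without their roles. No strand option is recorded, per the file headers. TPM were summed per gene ID. Estimated reads were coverage times length over the read length, and intervals cover the spread between libraries only.

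The members and lists were chosen with earlier results of these data known. For each gene with a mean of at least 0.5 TPM, log2(TPM divided by a median-of-ratios factor, plus 0.5) was compared between K97E and wild type with limma 3.58.1 (R 4.3.3, two-sided, variance trend, Benjamini-Hochberg adjustment over 16304 genes, threshold 0.05). This scale understates changes of low genes. Counts of genes higher or lower follow the sign of this scaled difference, which can differ from that of deposited TPM. For a single value 2 libraries against 2 cannot give an exact permutation p below 0.333, so none was used. Tested on simulated data for this comparison (16304 genes), the fit found 54 of 100 genes given a 2-fold change, 94 of 100 given a 4-fold change, and 8 that had been given none. The simulated noise was normal and independent between genes and libraries, with variances drawn from the fit's own estimate. Whether these rates hold for the real libraries was not tested. There Nos2, at a log2 difference of -2.55, was not called (limma adjusted p = 0.336). Tables and plots used Python 3.11.15, pandas 2.3.3 and matplotlib 3.10.9.

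The text names all members, up to 4 genes per list with the smallest unadjusted p at a mean of at least 1 TPM, the 3 genes most like Irf1, Irf7 and Irf9, markers, and genes whose exons overlap a member; some genes that this rule names are not reported here. Transcript types came from GENCODE M21 by transcript ID (70 of 70 matched), and start windows from RefSeq on GRCm38.p6, whose coordinates were not mixed with those of GRCm39. Alternatives were the pseudocount, the filter, the scaling, FPKM, voom weights, a fit without the trend, the replicate block and leaving out each library.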

Additional observations from a re-analysis of the deposited data

How the results depend on the processing

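Over all genes tested, 1 gene was called. That count was 0 without a filter, 2 with TPM as deposited, 2 without the variance trend and 4 with voom weights, and it ran from 0 to 18 when each library was left out in turn (18 without wild-type replicate 1, 6 without wild-type replicate 2, 0 without either K97E library). With the replicate block it was 0. The deviations of libraries with the same number had a correlation of -0.14 across 16304 genes, and the numbers were not treated as pairs. With the crossed pairing, chosen after seeing the data, 30 genes were called. The members' median log2 difference was 0.0027 with TPM as deposited and ran from -0.0896 to -0.0117 when each library was left out. No member was called in any of 90 alternative values, of which 8 had the opposite sign. Irf3 was at 0.037 with TPM as deposited, 0.0079 with FPKM and 0.0737 with voom weights, and ran from -0.0579 to 0.0141 over the libraries left out. Irf5 ran from -0.566 to 0.0317 and Irf9 from -0.0459 to 0.0525 over the libraries left out. The cause was not tested. Of 358 alternative values of the 24 named list genes, 0 changed sign and 2 were called, both of Nos2: -2.96 without wild-type replicate 1 (limma adjusted p = 0.0386) and -2.55 with the crossed pairing. Ifna4 and Epsti1 have no value at a mean of at least 5 TPM. With 2 libraries a group, where a lone library is assumed to vary like the other group, differences as small as those of the members could not be resolved.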
